A study of Mus musculus with 24 samples.

Results

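The 10 loci of the p53 and cell cycle control network described here were followed by CUT&RUN, which uses an antibody to bring a nuclease to a chromatin protein and sequences the DNA cut free beside it. They were chosen by name, as Trp53, Mdm2, Cdkn1a, Cdkn1b, Cdkn2a, Cdkn2b, Ccnd1, Ccnd2, Pcna and Myc, and are 10 of the 21883 protein-coding genes placed on the mouse build mm10. Each was read as a window of the gene body plus 10 kb on each side, which gave windows of 23.895 kb (Pcna) to 47.027 kb (Ccnd2), against a median of 37.169 kb over all protein-coding genes. The rule went by name and position and used no measured value, but the genes were chosen with earlier results of these data known.

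Trp53 encodes p53, a transcription factor that stress stabilises, and Mdm2 encodes the ubiquitin ligase that is both a p53 target and the enzyme that sends p53 to degradation. Cdkn1a (p21) is the p53 target that blocks cyclin-dependent kinases. Cdkn1b (p27), Cdkn2a (through its product p16) and Cdkn2b (p15) give inhibitors that act largely through other inputs. From an upstream promoter Cdkn2a also gives ARF, which is not an inhibitor of these kinases. Ccnd1 and Ccnd2 encode D cyclins, which these inhibitors oppose. Pcna encodes the sliding clamp of DNA replication, and Myc encodes a transcription factor that drives entry into the cycle. In fibroblasts the Cdkn2a and Cdkn2b locus is known as a barrier to reprogramming, as is p53 itself.

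The cells were the line iMGT-Myh6-eGFP-MEF, mouse embryonic fibroblasts with an eGFP reporter of Myh6 in which doxycycline induces Mef2c, Gata4 and Tbx5 (MGT). For the day 1 groups, 300000 cells a well received siJunb, siH1f0 or siControl by transfection. All of them were given 1 µg/mL doxycycline a day later, so MGT was induced in the controls too. Junb encodes a subunit of the AP-1 transcription factor and H1f0 encodes the linker histone H1.0. MEF2C was mapped at day 1 under siJunb (n = 3), siH1f0 (n = 3) and siControl (n = 2). H1.0 and H3K9me3, a histone mark of heterochromatin, were mapped at day 1 under siControl and in ground-state cells that were not reprogrammed (n = 2 for each). About 250000 cells went into each condition. All samples came from this single line, its transgenes are not the cells' own Mef2c, and MEF2C at day 1 was not mapped without induction. IgG samples (8 of the 24 listed) were not analysed here, the knockdowns were not checked, and RNA was not measured, so whether the cells differed in cycling is not known from these lists.

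Each of the 16 samples was represented by 1 list of peaks. The MEF2C lists held 11731, 49011 and 25790 peaks under siJunb, 22870, 35603 and 17871 under siH1f0, and 14928 and 27791 under siControl. Covered length followed list length only in part, with 13.4, 77.4 and 59.3 Mb under siJunb, 56.4, 89.8 and 22.5 Mb under siH1f0, and 15.6 and 63.3 Mb under siControl. Signal did not follow list length either. The median over a list of each peak's maximum signal was 7, 7 and 9 under siJunb, 17, 16 and 8 under siH1f0, and 9 and 20 under siControl. The longest list, siJunb replicate 2, was thus among those with the lowest median signal. The shortest coverage of every MEF2C group belonged to a sample whose deposited file name begins with M (siJunb replicate 1, siH1f0 replicate 3 and siControl replicate 1). The sources used here do not say what that letter marks, so the files were treated as a pair of naming series and every comparison was also read within each. The M lists of H1.0 were day 1 replicate 2 and ground-state replicate 1, and those of H3K9me3 were replicate 1 of each state. For H1.0 the gap was wider still, at 911 and 28.6 Mb at day 1 and 93.0 and 1109 Mb in the ground state.

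The promoters (250 bases before to 50 after an annotated start, RefSeq GRCm38.p6) show what MEF2C peaks lay over. Those of Pcna, Cdkn2b and Mdm2 are printed because a MEF2C peak covered them in 8, 8 and 7 of the 8 libraries, while 3.46% of 21262 protein-coding promoters had one in all 8 and 57.8% had none. That of Cdkn1b, covered in 6 libraries like those of Trp53 and the downstream start of Cdkn2a, was picked after its letters were seen, as the only one of the 9 promoters of 7 of the genes with a match to the MEF2 consensus. Capitals mark motif matches on either strand: GC boxes (GGGCGG), matches of the CCAAT box, the p53 decamer consensus in Mdm2 and the MEF2 consensus in Cdkn1b.
Pcna, chr2:132253131-132253430, minus strand: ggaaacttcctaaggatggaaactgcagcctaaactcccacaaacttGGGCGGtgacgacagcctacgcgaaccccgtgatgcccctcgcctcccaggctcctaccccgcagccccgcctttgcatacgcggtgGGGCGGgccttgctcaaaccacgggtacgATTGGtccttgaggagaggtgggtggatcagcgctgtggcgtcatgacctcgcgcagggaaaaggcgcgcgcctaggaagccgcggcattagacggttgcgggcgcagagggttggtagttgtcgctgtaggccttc
Cdkn2b, chr4:89310983-89311282, minus strand: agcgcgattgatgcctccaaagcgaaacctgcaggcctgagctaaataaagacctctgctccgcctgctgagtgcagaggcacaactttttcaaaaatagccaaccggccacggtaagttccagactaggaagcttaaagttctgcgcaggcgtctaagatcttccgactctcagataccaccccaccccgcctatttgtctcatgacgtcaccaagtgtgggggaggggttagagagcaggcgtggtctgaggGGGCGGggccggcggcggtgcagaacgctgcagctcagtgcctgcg
Mdm2, chr10:117710709-117711008, minus strand: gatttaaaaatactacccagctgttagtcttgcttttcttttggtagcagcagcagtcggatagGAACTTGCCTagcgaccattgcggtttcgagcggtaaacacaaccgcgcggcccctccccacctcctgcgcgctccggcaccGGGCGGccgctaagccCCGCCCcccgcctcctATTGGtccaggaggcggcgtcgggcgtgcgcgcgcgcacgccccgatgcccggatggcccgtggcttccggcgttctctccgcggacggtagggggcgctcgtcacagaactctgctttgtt
Cdkn1b, chr6:134920151-134920450, plus strand: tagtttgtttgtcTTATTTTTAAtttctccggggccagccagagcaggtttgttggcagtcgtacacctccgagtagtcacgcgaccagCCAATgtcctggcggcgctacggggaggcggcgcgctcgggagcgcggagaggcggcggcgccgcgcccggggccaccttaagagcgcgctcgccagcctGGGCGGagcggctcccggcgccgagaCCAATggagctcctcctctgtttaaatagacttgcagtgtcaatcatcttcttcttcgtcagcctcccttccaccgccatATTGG

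The MEF2 match of Cdkn1b, TTATTTTTAA, lay at bases -237 to -228 from the start site, and 2.74% of the 21262 protein-coding promoters held such a match. A GC box stood in 7 of the 9 promoters of these genes, against 46.2% of all, and a CCAAT box in 5 of 9, against 38.2%. The p53 decamer consensus stood in 3 of 9 (Mdm2, Trp53 and the upstream start of Cdkn1a), against 7.37% of all. The E-box CACGTG stood in 1 (Trp53) against 7.84%, TATAAA in 1 (Trp53) against 12.6%, and the AP-1 motif TGANTCA in 0 against 6.99%. The E2F motifs TTTCGCGC and TTTGGCGC stood in 0 of 9, against 0.452% and 0.635%. In the downstream Cdkn2a promoter, a CCAAT match on the other strand and a GC box overlap. These are letters in a window and say nothing of what was bound.

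MEF2C peaks lay over most of these genes. Of the 10 windows, 7, 8 and 8 held a peak in the siJunb libraries, against 30.3%, 58.4% and 45.9% of all protein-coding windows. In the siH1f0 libraries 9, 9 and 8 did, against 48.6%, 56.4% and 38.9%, and in the siControl libraries 7 and 9 did, against 34.2% and 53.8%. Both siControl libraries held a peak at 7 of 10 (32.4% of all windows), and all 8 libraries did at 6 of 10, namely Trp53, Cdkn1a, Cdkn2a, Cdkn2b, Pcna and Myc (19.0%). Ccnd2 was the 1 window with no MEF2C peak in any library, as were 27.9% of all windows. The median over the genes of their median covered percent, that is the share of the window under MEF2C peaks, was 13.3%, against 0 over all windows. Peaks fell into 30 merged regions, of which 5 were held by all 8 libraries and 12 by 1 library. Among all 77240 merged regions 5.58% were held by 8 libraries and 56.4% by 1.

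**Figure D1:**
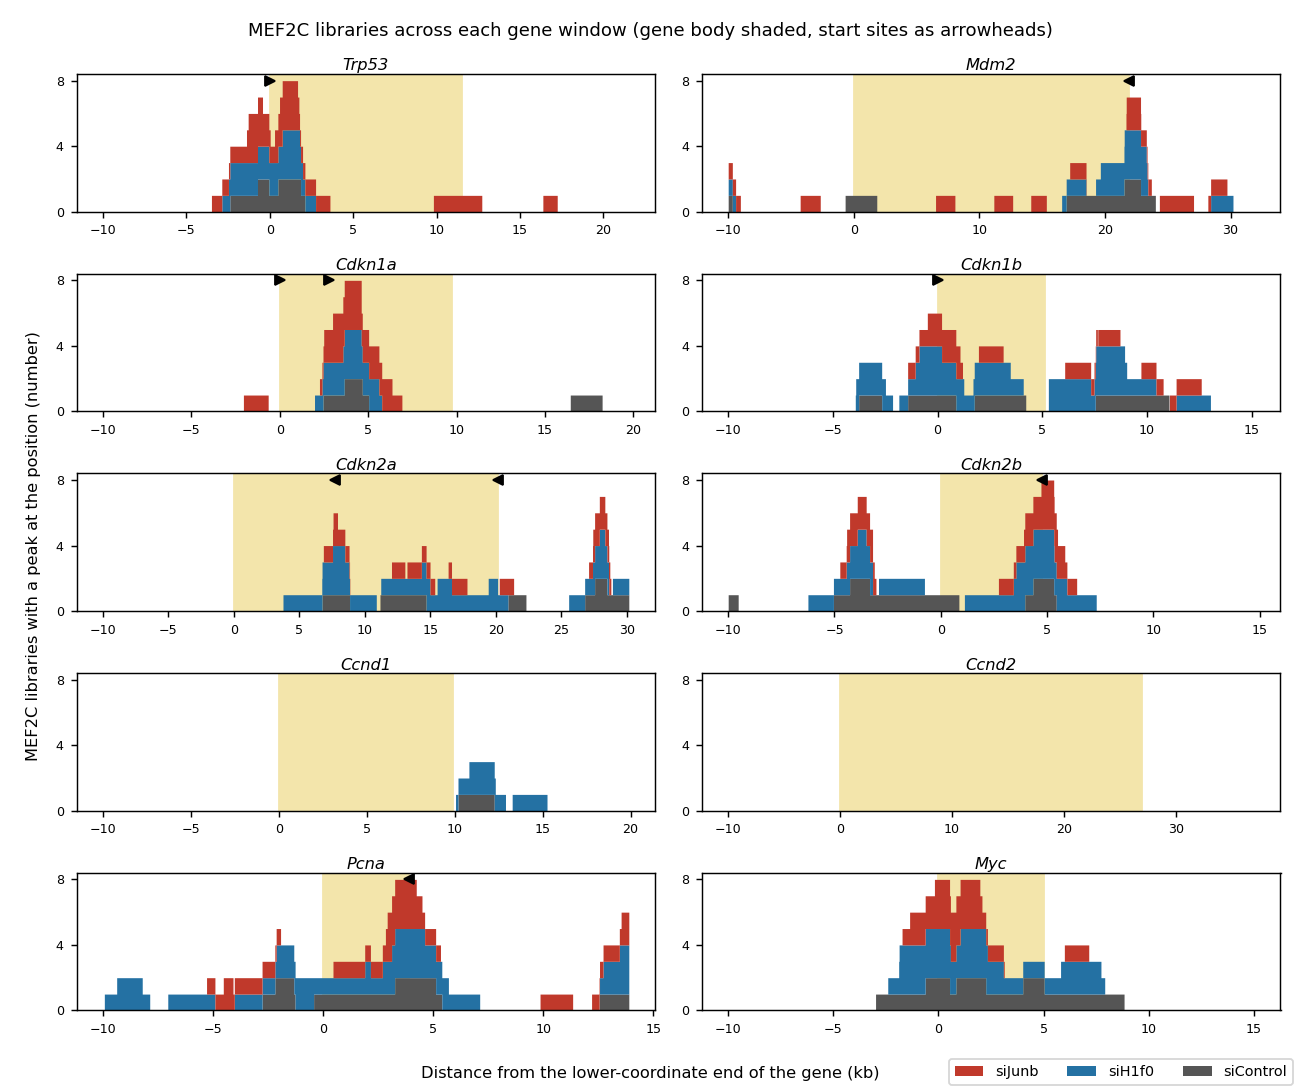
Number of MEF2C libraries (vertical axis, of 8) with a peak at each position of the 10 windows, against the distance in kb from the gene's lower-coordinate end. Colours stack the siJunb, siH1f0 and siControl libraries, shading marks the gene body and arrowheads annotated starts (3 genes have none shown). All 8 libraries met at Trp53, Cdkn1a, Cdkn2b, Pcna and Myc, while Ccnd2 was empty.

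At Trp53, MEF2C covered the 5' end of the gene. The window covered 8.16, 26 and 15.5% under siJunb, 14.1, 17.8 and 3.29% under siH1f0, and 6.49 and 14.3% under siControl. The groups overlapped, and the lowest value of each came from the M naming series. A single region, chr11:69576860-69583957, was held by all 8 libraries, and its stretch shared by all 8 was 907 bp long and centred 1.2 kb past the Trp53 start, within the gene. The same region took in the start of Wrap53, the neighbouring gene that runs the other way, so its peaks cannot be given to either gene. By maximum signal its strongest peak stood between the top 10.2% and the top 43.3% of a list.

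At Mdm2 the region over the start, chr10:117705432-117712877, was held by 7 libraries. The window covered 0, 23.6 and 13.6% under siJunb, 9.81, 19.3 and 4.19% under siH1f0, and 3.13 and 23.8% under siControl. The library with no peak was siJunb replicate 1, whose list is the shortest of the 8, and the other siJunb libraries lay within the range of siControl. The stretch shared by the 7 was 1136 bp and was centred at -0.369 kb, upstream of the start. The p53 decamer printed above lies in the promoter at bases -186 to -177. The other 8 regions of the window were held by 1 to 5 libraries each. That held by 5, chr10:117675305-117679837, lay within Cpm, a carboxypeptidase gene, and reached into the Mdm2 window from outside.

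Cdkn1a held the highest placed peak of the 10 genes by its median over libraries, the top 7.70% of a list. The window covered 7.13, 18.4 and 13.2% under siJunb, 12.3, 11.4 and 3.48% under siH1f0, and 9.47 and 8.67% under siControl. The siControl values lay inside the range of both knockdowns. A single region, chr17:29092949-29097881, was held by all 8 libraries, with a shared stretch of 952 bp centred 1.341 kb past the downstream start. That start, which a MEF2C peak reached in 5 libraries, differs from the upstream start, whose promoter carries a pair of p53 decamers and had no MEF2C peak in any library. By maximum signal the peak stood at rank 1025, 1179 and 697 under siJunb, 1525, 1314 and 3093 under siH1f0, and 2844 and 2739 under siControl. As a share of each list these are the top 8.74, 2.41 and 2.70% under siJunb, the top 6.67, 3.69 and 17.3% under siH1f0, and the top 19.1 and 9.86% under siControl. Every siJunb share was nearer the top than both siControl shares. The siJunb shares overlapped those of siH1f0, and the siH1f0 shares overlapped those of siControl. The lists differ in length, so ranks in them show no change in binding.

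Cdkn1b showed the widest range of the 10 genes. The window covered 4.19, 31.2 and 6.71% under siJunb, 37.8, 55.8 and 10.1% under siH1f0, and 0 and 37.3% under siControl. The highest 2 of the 8 values were of siH1f0 and siControl replicate 2 came next, but the third siH1f0 library overlapped the other groups. The region over the start, chr6:134918552-134924617, was held by 6 libraries, with a stretch of 687 bp shared by all 6 and centred at -0.147 kb, upstream of the start, where the promoter printed above lies. A further region, chr6:134925690-134931449, began 0.165 kb past the gene's end, took in the start of the long noncoding RNA Lockd and was also held by 6 libraries. Its peaks stood lower than those of Cdkn1a, at a median of the top 38.9% of a list over the 7 libraries with a peak in the window.

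Cdkn2a and Cdkn2b are neighbours, 11.669 kb apart, and their windows share 8.331 kb, so they are not independent. Cdkn2a covered 2.75, 12.2 and 12.5% under siJunb, 18.8, 46.2 and 5.45% under siH1f0, and 2.32 and 25.8% under siControl. Cdkn2b covered 6.43, 18.1 and 13.4% under siJunb, 23.9, 37.4 and 8.99% under siH1f0, and 7.76 and 31.8% under siControl. For both genes the M library was the lowest of its group, and the groups overlapped. The start of Cdkn2b, in chr4:89307397-89313608, was held by all 8 libraries, with a shared stretch of 614 bp centred at -0.266 kb, upstream of it.

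Between both genes lay a region with no annotated start, chr4:89300032-89307146, held by 7 libraries and missing only from siJunb replicate 1. In siControl replicate 2 its peak ran into the 3' end of Cdkn2b. The stretch common to the 7 was 425 bp, chr4:89302361-89302785, and a long noncoding RNA gene, Gm12610, spans it. Its peaks had ranks 5754 and 1557 under siJunb (replicates 2 and 3), 3387, 1956 and 2145 under siH1f0, and 1928 and 860 under siControl. In siControl replicate 2 it stood in the top 3.09% of the list, the highest placed MEF2C peak of either window. Over the p16 start, the downstream start of Cdkn2a, 6 libraries held a peak. The promoter of the upstream start, which gives ARF, was touched by a peak in 3 (1 of siJunb, 2 of siH1f0 and 0 of siControl). Of these peaks only that of siH1f0 replicate 1 lay over the start itself. Ranks of lists of different length show no change here either.

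**Figure D2:**
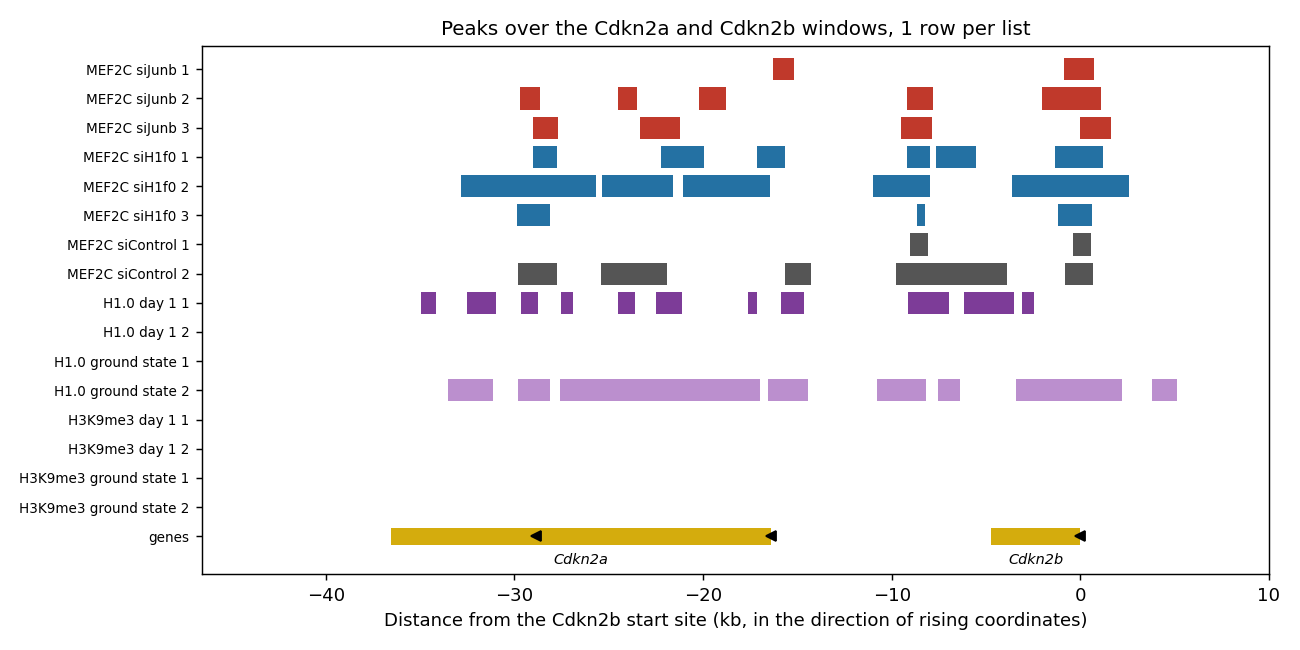
Peaks in each of the 16 lists across the joined Cdkn2a and Cdkn2b windows, as bars along the distance in kb from the Cdkn2b start, with the genes and their starts below. Between the genes, MEF2C bars of 7 libraries stack at chr4:89302361-89302785, and over the Cdkn2b start those of 8 do. H1.0 bars appear in 2 of 4 lists and H3K9me3 bars in 0 of 4.

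Ccnd1 and Ccnd2 had little MEF2C. Ccnd1 covered 0% in all 3 siJunb libraries, 7.56, 13.6 and 0% under siH1f0, and 0 and 6.89% under siControl. The region, chr7:144939974-144942827, began 0.143 kb beyond the gene's higher-coordinate end and was held by 3 libraries, 0 of siJunb, 2 of siH1f0 and 1 of siControl. Its peaks stood low, at the top 66.0% and the top 84.9% of the list under siH1f0 (replicates 1 and 2) and the top 79.1% under siControl (replicate 2). Ccnd2 covered 0% in all 8 libraries although its window is the longest of the 10.

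At Pcna, MEF2C covered the start in all 8 libraries. The window covered 7.06, 15.5 and 41.2% under siJunb, 50.5, 49.9 and 8.11% under siH1f0, and 11.7 and 36.0% under siControl. The highest pair of values was of siH1f0, but its M library was below both siControl libraries. The region over the start, chr2:132242231-132256398, had a shared stretch of 987 bp centred 0.149 kb past the start. It also took in the start of Tmem230, a membrane protein gene next to Pcna. The annotated body of Cds2, which codes for an enzyme of phospholipid synthesis, begins at 132253338, within the stretch shared by all 8, so these peaks cannot be given to Pcna alone. A region held by 7 libraries, chr2:132261478-132267727, ran over the window's edge and lies in Cds2.

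Myc lay in a single region, chr15:61982348-61994162, held by all 8 libraries. The window covered 9.03, 19.4 and 17.9% under siJunb, 29.6, 39.1 and 15.1% under siH1f0, and 14.3 and 47.2% under siControl. The siJunb mean was 15.5 ± 5.6% (SD, n = 3), the siH1f0 mean 27.9 ± 12.1% (n = 3) and the siControl mean 30.8 ± 23.3% (n = 2). The siControl values stood far apart, with the knockdown values mostly between them, and the groups overlapped. Its strongest peak stood between the top 9.0% and the top 51.1% of a list.

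**Figure D3:**
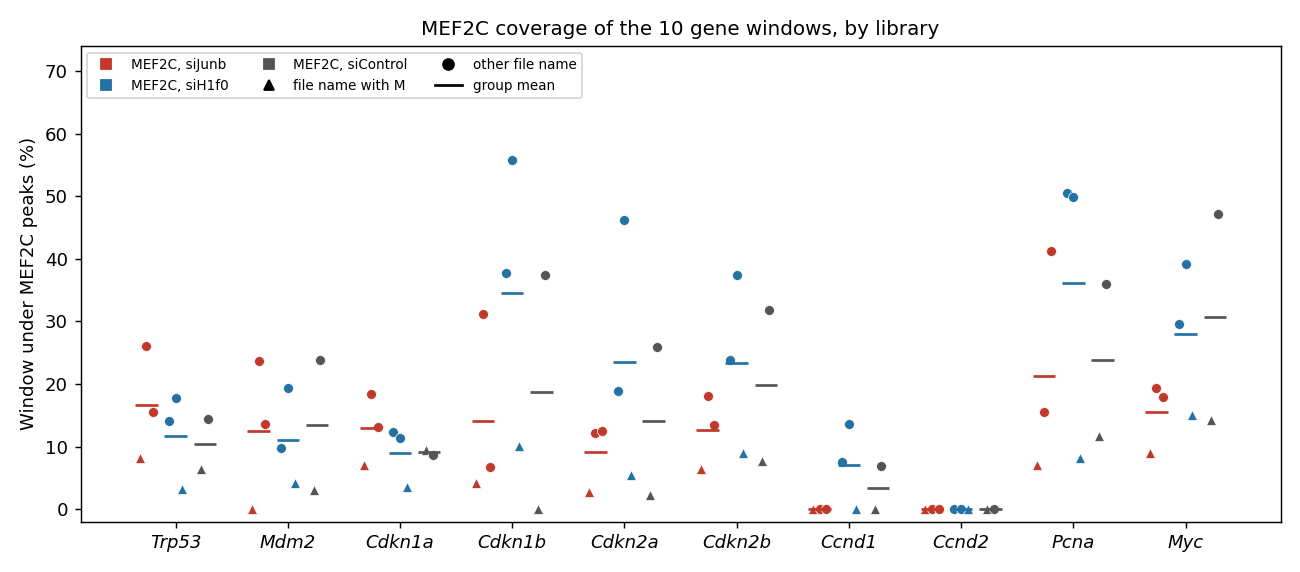
Share of each window under MEF2C peaks (vertical axis, %) by library for siJunb, siH1f0 and siControl, left to right at each gene, with horizontal lines at the group means. Triangles are libraries of the M naming series and circles the others. Triangles are low in nearly every group, and the colours overlap at every gene.

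By covered percent, neither knockdown separated from siControl at any of the 10 genes. Of them 0 had a higher covered percent in every siJunb library than in both siControl libraries and 0 a lower one, against 1.38% and 2.18% of all protein-coding windows. For siH1f0 against siControl the counts were 0 higher and 0 lower, against 2.13% and 0.393%, and for siJunb against siH1f0 0 and 0, against 0.644% and 2.47%. With a background this low, 0 of 10 is near what the background gives and says nothing particular of these genes. Of the 30 regions, 0 were held by both siControl libraries and no siJunb library (1.98% of all regions), and 0 by all siJunb and no siControl library (0.256%). For siH1f0 the counts were likewise 0 lost (0.249%) and 0 gained (0.448%). Both knockdowns were set against the same siControl libraries. By maximum signal, the list share of the window's strongest peak did separate at some genes. It was nearer the top in every siJunb library than in both siControl libraries at Cdkn1a and Pcna. At Pcna it was also nearer than in every siH1f0 library. At Trp53 every siH1f0 library was nearer than both siControl libraries. Ranked by signal summed over a peak, Pcna and Trp53 overlapped in these comparisons, and Cdkn1a still separated from siControl. At Pcna the strongest peak by maximum signal lay in Cds2 in siJunb replicates 1 and 3, and over the Pcna start in both siControl libraries. How many of all windows do so was not counted, the list lengths differ, and these shares were not tested.

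The exact permutation test over libraries, two-sided, cannot go below 0.2 with 3 against 2 libraries or 0.1 with 3 against 3. After Benjamini-Hochberg adjustment over all 21883 windows the smallest adjusted p of this exact test was 1 in each comparison, and 0 windows had an unadjusted p under 0.05. A true difference could therefore not have passed. Mean differences did not exceed the larger SD of the groups compared, except at Myc and Ccnd1 for siJunb minus siH1f0. At Myc the difference was -12.47 points (SD 5.62 and 12.10, exact p = 0.3). At Ccnd1 it was -7.05 points (SD 0 and 6.80, exact p = 0.4), and the libraries overlapped at both genes. The largest of siJunb minus siControl was at Myc (-15.29 percentage points, exact p = 0.6) and of siH1f0 minus siControl at Cdkn1b (15.90 points, exact p = 0.4). The largest of siJunb minus siH1f0 was also at Cdkn1b (-20.55 points, exact p = 0.2).

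The naming series were then held apart. An exact permutation test within the series, added after seeing the data, cannot go below 0.333 for either knockdown against siControl or 0.167 for siJunb against siH1f0, and its smallest adjusted p was 1. In the M series, with 1 library a group, siJunb was higher than siControl at 3 of the 10 (18.8% of all windows) and lower at 5 (23.2%). In the other series both siJunb libraries were higher than the siControl library at 2, Trp53 and Cdkn1a (18.4%), and lower at 6, Mdm2, Cdkn1b, Cdkn2a, Cdkn2b, Ccnd1 and Myc (24.3%). In that series the siJunb lists also had a lower median of maximum signal (7 and 9) than the siControl list (20). Whether this bears on the counts was not tested. Mdm2, Cdkn2b and Myc were lower in both series (10.1% of all windows were) and Trp53 was higher in both (6.67%). Cdkn1a, Cdkn1b and Cdkn2a turned round between the series.

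For siH1f0 against siControl, the M series gave 5 higher (30.8%) and 3 lower (14.9%), and the other series 4 higher (19.3%) and 2 lower (16.3%). Cdkn1b was higher in both series (11.2% of all windows), while Mdm2, Cdkn1a, Pcna and Myc changed side. For siJunb against siH1f0, the M series gave 2 higher (13.2%) and 6 lower (31.4%). In the other series both siJunb libraries were below both siH1f0 libraries at 6, namely Cdkn1b, Cdkn2a, Cdkn2b, Ccnd1, Pcna and Myc (16.9%), and above both at Cdkn1a (11.9%). Of these, Cdkn1b, Cdkn2a, Cdkn2b, Pcna and Myc were lower in both series (9.66% of all windows) and Cdkn1a was higher in both (2.80%). Without siH1f0 replicate 3, the 6 lower genes stood below in every library left, as did 16.7% of all windows. Windows with any coverage have more room to differ than the many at 0, so these shares of all windows are no like-for-like measure.

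H1.0 peaks were present at 10 and 6 of the 10 genes in the day 1 lists (97.7% and 47.1% of all windows) and at 7 and 10 in the ground-state lists (70.8% and 96.4%), so all 10 were reached in the long lists only. All 4 lists held a peak at 5 of 10, Mdm2, Cdkn1a, Cdkn1b, Ccnd2 and Myc, against 41.3% of all windows. Myc had 74.4 and 7.14% of its window under H1.0 at day 1 and 15.1 and 80.1% in the ground state. Mdm2 had 69.0 and 6.01% at day 1 and 32.3 and 38.5% in the ground state. As percentiles of all windows these were 93.6 and 94.2 at day 1 and 99.1 and 51.4 in the ground state. Cdkn2a had 25 and 0% at day 1 and 0 and 51.3% in the ground state, and Cdkn2b had 22.4 and 0% at day 1 and 0 and 44.6% in the ground state. The zeros of both genes fall on the M lists. Ccnd2, empty of MEF2C, had 45.1 and 1.22% at day 1 and 13.1 and 24.7% in the ground state.

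Day 1 and ground state overlapped at every gene for H1.0, with 0 of 10 higher (0.142% of all windows) and 0 lower (0.0960%) in both day 1 lists. Within the M series day 1 was higher at 1 and lower at 7 (11.3% and 65.1% of all windows). Within the other series it was higher at 5 and lower at 5 (52.4% and 45.5%). Of the bases under MEF2C regions at Myc, H1.0 covered 70.8% at day 1 and 100% in the ground state in the lists outside the M series, and 15.1% at day 1 and 8.77% in the ground state in the M lists. At Cdkn1b it covered 59.0% at day 1 and 85.9% in the ground state outside the M series, and 0% at day 1 and 3.83% in the ground state in the M lists. Among the 9 genes with MEF2C, these were the 2 with the highest shares in ground-state replicate 2, picked after their values were seen.

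**Figure D4:**
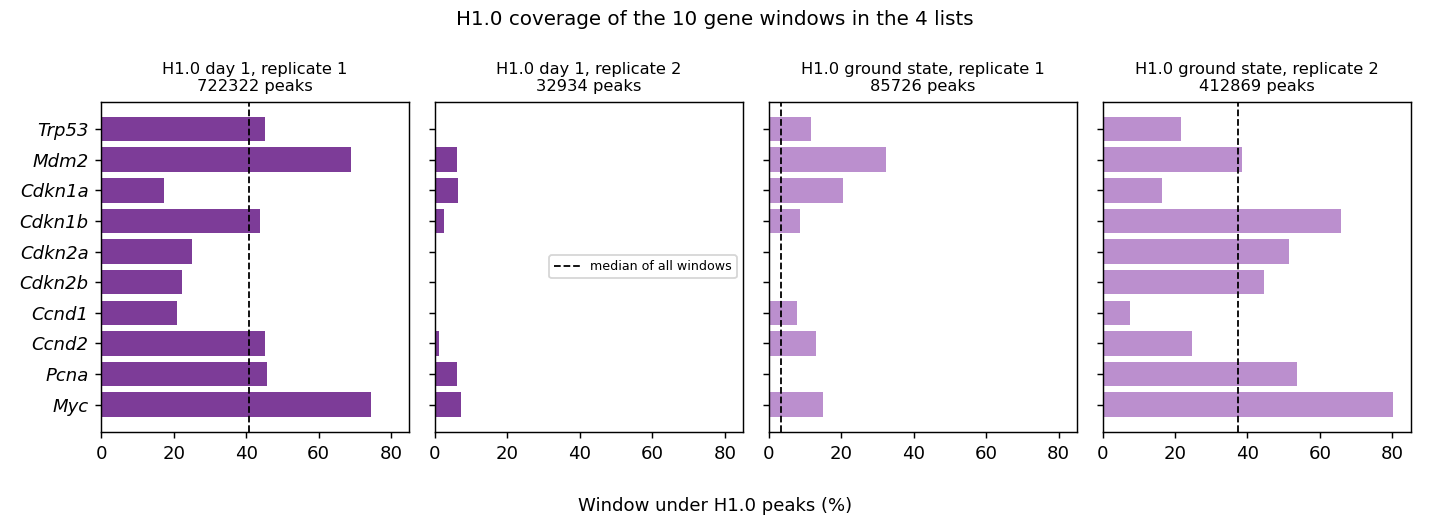
Share of each window under H1.0 peaks (horizontal axis, %) for the 10 genes in the 4 lists, day 1 then ground state, with the number of peaks above each panel. The dashed line is the median of all protein-coding windows. Myc is the highest in both long lists, at 74.4% and 80.1%.

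H3K9me3 was absent from 9 of the 10 windows in all 4 lists, against 51.7% of all protein-coding windows with no peak. Of the 10 windows 1 and 1 held a peak at day 1 (33.6% and 39.2% of all windows) and 0 and 1 in the ground state (22.3% and 45.1%). Cdkn1a was the exception, with 8.96 and 28.2% of its window under H3K9me3 at day 1 and 0 and 22.3% in the ground state. The lower day 1 value lay between the ground-state values, so the groups overlapped, and the zero was the ground state's M list. A peak was held by 3 of the 4 lists, and 31.5% of all windows held one in 3 or more. The strongest peak lay past the gene's 3' end, at 6.693 to 8.612 kb and at 3.503 to 8.554 kb from it in the day 1 lists and at 6.200 to 8.594 kb in ground-state replicate 2. It was rank 298 of 69439 and 503 of 44625 by maximum signal at day 1, and rank 2928 of 65706 in ground-state replicate 2. Upstream of the gene, further peaks stood in the same 3 lists.

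Over the same 3' flank, MEF2C had a peak in siControl replicate 1 only, chr17:29107411-29109203, at 6.689 to 8.481 kb. It was low in its list, in the top 74.7%. H1.0 peaks overlapped its place in day 1 replicate 2 (7.143 to 7.865 kb) and ground-state replicate 2 (6.968 to 8.506 kb). Nearer the gene, H1.0 peaks stood at 3.495 to 4.629 kb in day 1 replicate 2 and at 0.166 to 2.828 and 3.423 to 4.735 kb in ground-state replicate 1. The MEF2C region inside Cdkn1a held by all 8 libraries had no H3K9me3 peak on it. Between day 1 and ground state H3K9me3 was higher in both lists at 0 of 10 (1.28% of all windows) and lower at 0 (0.516%). Within each naming series Cdkn1a was higher at day 1 (24.9% of all windows in the M series, 23.1% in the other and 13.1% in both) and 0 genes were lower (10.2% and 23.7%). The exact permutation test cannot go below 0.333 here, and its p for Cdkn1a was 0.667.

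**Figure D5:**
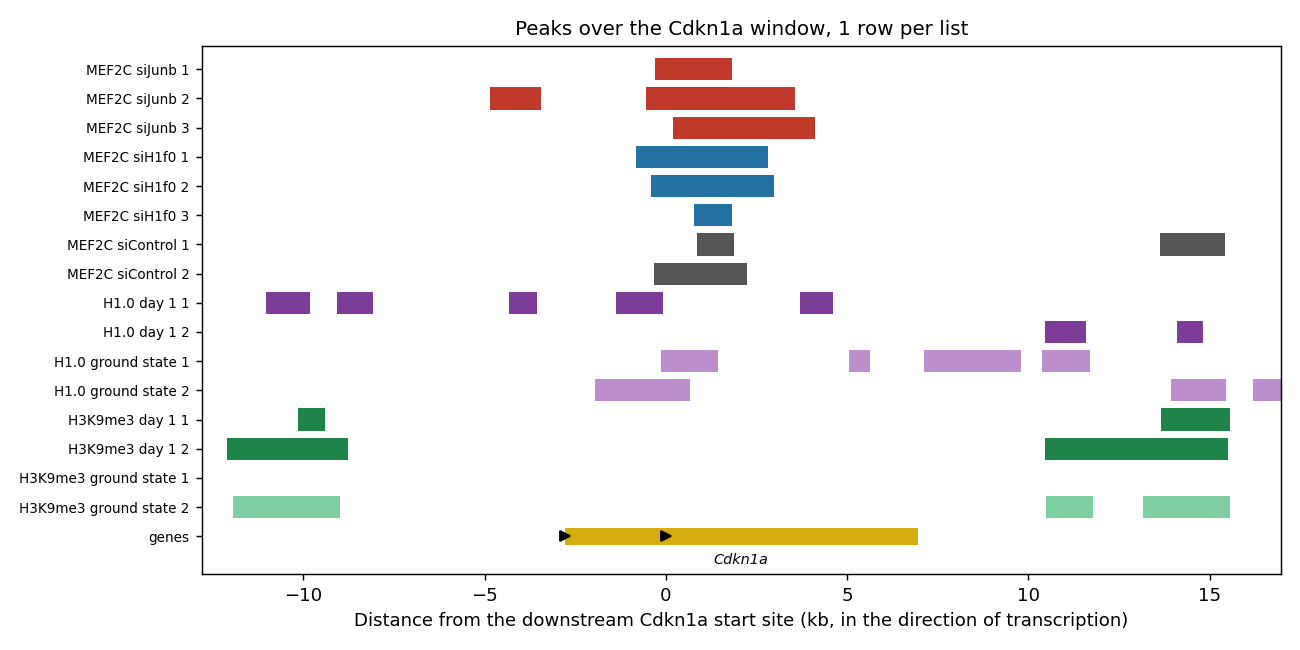
Peaks in each of the 16 lists across the Cdkn1a window, as bars along the distance in kb from the downstream start, with the gene and both starts below. MEF2C bars of all 8 libraries stack past the downstream start, and H3K9me3 bars of 3 of 4 lists stand on both flanks of the gene and off its body.

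Further genes of the same network, 94 in 6 lists, place these 10 among their partners. Of 27 p53 regulators and targets, 16 held a MEF2C peak in both siControl libraries and 9 in all 8 (against 32.4% and 19.0% of all windows), that is Ppm1d, Bbc3, Gadd45a, Sesn1, Sesn2, Btg2, Ddb2, Rrm2b and Trp63. The strongest placed were Btg2, an antiproliferative p53 target, at a median of the top 0.671% of a list, and Sesn1, a stress-induced inhibitor of mTORC1 signalling, at 1.05%. Sesn2, of the same family, stood at 7.45% and the p53 relative Trp63 at 9.16%. Btg2 covered 16.4, 59.0 and 41.3% under siJunb, 44.2, 52.9 and 23.2% under siH1f0, and 20.0 and 44.5% under siControl. At 4 of the 27 there was no peak in any library (Zmat3, Aen, Usp7 and Trp73), against 27.9% of all windows. The list's median covered percent was 2.55%.

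Eda2r, a receptor gene and p53 target, covered 0, 2.19 and 1.85% under siJunb, 9.07, 11 and 4.46% under siH1f0, and 4.29 and 11.3% under siControl. Every siJunb value was below every siControl and every siH1f0 value. Ei24, a p53-induced gene, was also lower in every siJunb library than in both siControl libraries, at 0 in all 3 siJunb libraries against 0.0105 and 0.668% under siControl. The siControl value of 0.0105% is barely above 0, so the Ei24 call rests on very little coverage. Under siH1f0 Ei24 had 0, 1.57 and 0%. That made 2 of 27 lower and 0 higher, against 2.18% and 1.38% of all windows.

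Of the 3 other CDK inhibitors, Cdkn2d (p19) and Cdkn2c (p18) held MEF2C in all 8 libraries (19.0% of all windows) and Cdkn1c (p57) in 0 (27.9%). Of 19 genes of G1 and the RB-E2F step, 9 held it in both siControl libraries, against 32.4% of all windows. In all 8 libraries 3 held it, Cdk6, Cdk4 and E2f3, against 19.0%. Cdk6, a kinase partner of the D cyclins, stood at a median of the top 0.635% of a list, Cdk4 at 14.1% and E2f3 at 17.6%. Both kinase genes, Cdk4 and Cdk6, carried MEF2C in every library. Among the D cyclin genes, Ccnd2 carried none, Ccnd1 carried it in 3 libraries and Ccnd3 in 7. The Ccnd3 window covered 0.570, 7.34 and 2.25% under siJunb, 4.55, 1.36 and 0% under siH1f0, and 0.748 and 4.75% under siControl. Both E cyclin genes, Ccne1 and Ccne2, had none. Rbl2 (p130) was higher under siH1f0 in every library, at 1.43, 0.178 and 2.89% against 0 and 0.160% under siControl. That made 1 of 19 against 2.13% of all windows. The values of 0.178% and 0.160% hardly differ, so the Rbl2 call rests on very little coverage.

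Of 13 genes of S, G2 and M, 6 held MEF2C in both siControl libraries, against 32.4% of all windows. In all 8 libraries 2 did, the mitotic kinase gene Aurkb and the cyclin gene Ccna2, against 19.0%. Ccna2 covered 4.0, 5.67 and 5.10% under siJunb, 16.1, 18.6 and 7.46% under siH1f0, and 3.42 and 13.1% under siControl. Every siJunb value was below every siH1f0 value, while siControl overlapped both, which made 1 of 13 against 2.47% of all windows. Of 20 replication genes and PCNA partners, 10 held MEF2C in both siControl libraries (32.4% of all windows) and 4 in all 8 (19.0%). These were the clamp-loader genes Rfc4 (median of the top 3.15%) and Rfc1 (29.4%), the helicase subunit gene Mcm7 (22.6%) and the thymidylate synthase gene Tyms (46.9%).

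Pole, a DNA polymerase subunit gene, was higher in every siH1f0 library, at 2.16, 5.64 and 1.38% against 0 and 0% under siControl. Gins2, a replicative helicase partner, was so too, at 10.5, 8.04 and 13.4% against 5.29 and 7.10% under siControl. The 2 of 20 compare with 2.13% of all windows. Of 12 genes of the MYC network, 7 held MEF2C in both siControl libraries and 4 in all 8, against 32.4% and 19.0% of all windows. With their median list shares, the 4 were the MAX-binding repressor genes Mnt (9.96%), Mxd4 (4.80%) and Mxi1 (12.5%) and the related activator gene Mlxip (1.76%). Max, the partner of MYC, was lower in every siJunb than in every siH1f0 library, at 2.14, 3.11 and 0% under siJunb against 4.0, 8.59 and 3.21% under siH1f0. The siControl values, 2.85 and 4.4%, overlapped both, and 1 of 12 compares with 2.47% of all windows. The lists were chosen with earlier results of these data known, and counts as small as these are given without a claim on the lists.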

How the data were processed

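CUT&RUN libraries of MEF2C, H1.0 and H3K9me3 were read from 16 deposited peak lists, 1 per sample. Per the submitters' processing notes, Bowtie2 and SEACR were run on mm10; no source used here gives versions. The deposited values are signal, as coverage summed over a peak and its maximum within it. The peak scores are the authors' and were used only to rank peaks within a list (ties take the lowest rank). Aligned depth and whether IgG set the thresholds are not given in the sources used here. A label of 30 M reads stands on each sample. List length stands in for depth, but only roughly, since the median signal of the MEF2C lists did not follow it. Replicates are labelled biological, and p-values measure only the spread between these samples.

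Coordinates are 1-based. Gene positions and promoters came from RefSeq GRCm38.p6, which is mm10, and peaks counted at 1 bp of overlap. Windows were the gene body plus 10 kb. The share of each window under peaks was compared over all 21883 protein-coding windows by an exact permutation test, two-sided, with Benjamini-Hochberg adjustment, and by counting windows whose libraries did not overlap between groups. The procedure was tested on simulated data. All 10 genes are described. Of the pathway lists, genes with MEF2C in all 8 libraries (up to 4 a list by median list rank) or with non-overlapping groups are given values. The second kind and the genes with no peak were named after their values were seen. Ccnd3 is given as well, as the remaining D cyclin gene. Members and lists were chosen with earlier results of these data known. Alternatives covered other windows, peak thresholds, equal list lengths, naming series, left-out libraries and replicate blocks, and a test within naming series was added after seeing the data. Python 3.11.15, numpy 2.4.6, pandas 2.3.3, scipy 1.17.1 and matplotlib 3.10.9 were used.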

Additional observations from a re-analysis of the deposited data

How the results depend on the processing

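Of 690 differences in covered percent recomputed under the alternatives, 87 took the other sign, 42 of them among the 240 that leave out 1 library. None had been called, so no call was reversed. For siJunb minus siControl, Pcna, Mdm2 and Cdkn1b turned positive without siJunb replicate 1. For H1.0, Mdm2 was -29.3 points without day 1 replicate 1, against 2.15 with it. Of 172 counts, 120 stayed within 1.5 times and 52 did not. The counts at 0 of 10 moved most often, since leaving out 1 library ends an overlap, and many other windows moved with them. In what follows the share of all windows stands in brackets.

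Leaving out 1 library gave 0 to 3 genes higher and 0 to 6 lower for siJunb minus siControl, with 3 higher without siControl replicate 2 (14.3%), 2 without siJunb replicate 1 (18.3%) and 6 lower without siControl replicate 1 (24.2%). It gave 0 to 5 higher and 0 to 2 lower for siH1f0 minus siControl, with 5 higher without siControl replicate 2 (25.7%), 4 without siH1f0 replicate 3 (19.1%) and 2 lower without siControl replicate 1 (16.0%). It gave 0 to 1 higher and 0 to 6 lower for siJunb minus siH1f0, with 1 higher without siJunb replicate 1 (11.6%), 1 lower without siJunb replicate 2 (7.44%) and 6 lower without siH1f0 replicate 3 (16.7%). For H1.0 it gave 0 to 4 higher, 4 without day 1 replicate 2 (52.3%) and 1 without ground-state replicate 2 (11.2%). It gave 0 to 7 lower, 7 without day 1 replicate 1 (64.5%), 5 without ground-state replicate 1 (45.5%) and 1, Cdkn1a, without ground-state replicate 2 (0.201%). For H3K9me3 it gave 0 to 1 higher, Cdkn1a, without day 1 replicate 1 (23.0%) or ground-state replicate 2 (22.1%).

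Within the M naming series the counts higher and lower were 3 and 5 for siJunb minus siControl, 5 and 3 for siH1f0 minus siControl, 2 and 6 for siJunb minus siH1f0, 1 and 7 for H1.0, and 1 higher for H3K9me3. Within the other series they were 2 and 6, 4 and 2, 1 and 6, 5 and 5, and 1 higher. With 25 kb flanks 1 gene was higher for H3K9me3 (Cdkn1b, 1.56%), and with lists cut to equal length 1 was higher under siJunb than under siControl (Cdkn1b, 2.57%). With the upper 50% of each list, 1 gene was lower for H1.0 (Cdkn1a, 0.471%) and 3 of 10 held MEF2C in all 8 libraries (12.1%), against 6. The cause was not tested.

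Whether the replicate numbers pair the samples was not settled. In siJunb with siControl and in H3K9me3, same-numbered libraries also share a naming series, so number and series cannot be told apart there. Same-numbered deviations correlated at 0.635 and 0.495 for siJunb with siControl, -0.342 and 0.661 for siH1f0 with siControl, -0.266, 0.474 and -0.302 for siJunb with siH1f0, -0.549 for H1.0 and 0.852 for H3K9me3, and not every library correlated best with its own number. All pairs of 1 naming series were positive (0.163 to 0.852) and all pairs across the series negative (-0.852 to -0.266), whatever their numbers. Where a group has 2 libraries their deviations mirror each other, so the negative values there follow from the positive ones. With the replicate block, counts of genes that moved one way in every pair were 1 higher (10.7%) and 4 lower (11.9%) for siJunb minus siControl, 7 higher for siH1f0 minus siControl (32.3%), 1 lower for siJunb minus siH1f0 (6.69%), 1 lower for H1.0 (Cdkn1a, 0.137%) and 1 higher for H3K9me3 (13.1%). In siH1f0 minus siControl the block sets siH1f0 replicate 1 (56.4 Mb) against the M library of siControl (15.6 Mb) and leaves out siH1f0 replicate 3, and in H1.0 both its pairs cross the naming series. A crossed pairing for H1.0, added after seeing the data, gave 2 lower (25.9%).

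With the naming series as a block, also added after seeing the data, genes that moved one way in both series were 1 higher (6.67%) and 3 lower (10.1%) for siJunb minus siControl, 1 higher for siH1f0 minus siControl (11.2%), 1 higher (2.80%) and 5 lower (9.66%) for siJunb minus siH1f0, 2 lower for H1.0 (25.9%) and 1 higher for H3K9me3 (13.1%). The exact permutation test within series cannot go below 0.5 for H1.0 and H3K9me3, and in all 5 comparisons its smallest adjusted p was 1, with 0 windows under 0.05 unadjusted. Peak lists carry no counts, so depth limits show only through list length, which the median signal of the MEF2C lists did not follow.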
